A study of Canis lupus familiaris with 18 samples.

Results

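The transcripts described here encode 8 surface proteins by which mesenchymal stem cells (MSCs) are recognised or with which they adhere: THY1 (CD90), ENG (CD105), NT5E (CD73), CD44, NGFR (CD271), ALCAM (CD166), ANPEP (CD13) and VCAM1 (CD106). They were taken by gene symbol from the 84 genes of an RT-qPCR array, and all 8 were found. No measured value enters this rule, but the markers were chosen with earlier results of these data known. The cells were canine adipose-derived MSCs (cAD-MSCs) of 9 healthy female dogs, which were analysed at passage 3 (P3), labelled as the control group, and at passage 6 (P6). Both passages came from the same donors, so there were 18 RNA samples, 9 per passage, and no agent or allele distinguished them. Abdominal fat was digested with collagenase and the cells that adhered to plastic were grown in low-glucose medium with fetal bovine serum without sorting, so each sample may hold other adherent cells. The labels name 1 sample per donor and passage, and donor age was not used here.

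The minimal criteria for human MSCs ask for CD90, CD105 and CD73 on the surface and for the absence of leukocyte antigens. CD90 is a glycolipid-anchored glycoprotein of fibroblasts and stromal cells, CD105 is a co-receptor of the TGF-β family, and CD73 is the enzyme that converts extracellular AMP to adenosine. CD44 is the main hyaluronan receptor, and CD271, the low-affinity neurotrophin receptor, is used to enrich uncultured stromal cells from human bone marrow and fat. CD166 and CD106 are immunoglobulin-family adhesion molecules that bind CD6 and the integrin VLA-4 on leukocytes, respectively, and CD13 is a membrane aminopeptidase.

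The array gave 1 threshold cycle (CT) per gene and sample, the number of PCR cycles after which a well's signal passes a fixed line, so that abundant transcripts have a low CT. Here a CT above 35 cycles, or a well that never crossed, was set to 35 cycles, and the CT of each gene was subtracted from the geometric mean CT of ACTB, B2M, HPRT1, PGK1 and RPL13A in the sample. This −ΔCT is a level on the log2 scale, where 0 is the level of the reference genes and 1 unit is a 2-fold difference. A well that never crossed gives only an upper bound of the level. In such bulk RNA, fewer cells that express a gene and less of its RNA per cell cannot be told apart.

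The genomic DNA control did not cross in 18 of 18 samples, and the reference genes had a geometric mean CT of 14.85 ± 0.508 (SD, n = 9 donors) at P3 and of 14.65 ± 0.321 at P6. Some samples held many distant wells. In donor 9/21 at P6, 11 of the 84 genes lay over 5 cycles below the median of the other donors and 7 lay over 5 cycles above it. In donor 7/22 at P6 these counts were 8 below and 3 above, and in donor 6/22 at P6 they were 2 below and 7 above. In the 16 samples other than 9/21 and 7/22 at P6, 0 to 5 genes lay that far below. Marker lists were summed as the log2 of the summed ratios to the reference genes. The sum of the 8 MSC markers lay between −2.62 and 0.14 at P3 and between −2.08 and 0.13 at P6. The leukocyte markers PTPRC (CD45) and ITGAX summed to −15.19 to −6.59 at P3 and from at most −19.87 to −15.52 at P6. Both were detected in some samples of each passage. In donors 7/22, 6/22 and 2/22 at P6 both genes lay at the CT limit, so these sums are bounds (at most −19.87, −19.49 and −19.23). The sums of endothelial markers VWF and KDR lay between −11.60 and −8.06 at P3 and between −14.01 and 2.52 at P6. The highest was donor 9/21 at P6 through KDR, while VWF reached at most −7.60 at P6. For ADIPOQ, LPL and PPARG, markers of adipocytes, they ranged from −10.86 to −8.64 and from −11.80 to 7.56, the highest being donor 1/22 at P6 through PPARG. MCAM, ACTA2 and PDGFRB, which mark mural cells, ranged from −2.05 to 1.99 and from −3.40 to 1.81. ACTA2 was the main part of these sums, with means of −0.02 at P3 and −0.25 at P6. PDGFRB had means of −6.45 and −7.68, and MCAM of −10.38 at both passages. The part of these cells in the results below was not tested.

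Transcripts of the surface markers crossed the threshold in 141 of 144 wells, and 5 of the 8 were detected in all 18 samples, against 51 of 84 genes of the array (60.7%). The 3 wells that never crossed belonged to THY1 of donor 9/21 at P3, NGFR of donor 7/22 at P3 and ALCAM of donor 9/21 at P6. All 3 genes were detected in the same donor at the other passage. Each of these wells weighs on a mean, which is given with and without it.

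The markers spanned a wide range of levels. By their mean −ΔCT the order at P3 was CD44, ANPEP, ALCAM, THY1, ENG, NT5E, VCAM1 and NGFR, and at P6 it was CD44, THY1, ANPEP, ENG, ALCAM, NT5E, VCAM1 and NGFR. CD44 stood at rank 9 of the 84 genes at P3 and at rank 8 at P6, while NGFR stood at ranks 69 and 65. CD44 was the highest of the 8 markers at P3 in 6 of 9 donors and at P6 in 7, and NGFR was the lowest in 7 of 9 donors at each passage. The order compares threshold cycles, since the length and the efficiency of each assay are not given in the sources used here.

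**Figure D1:**
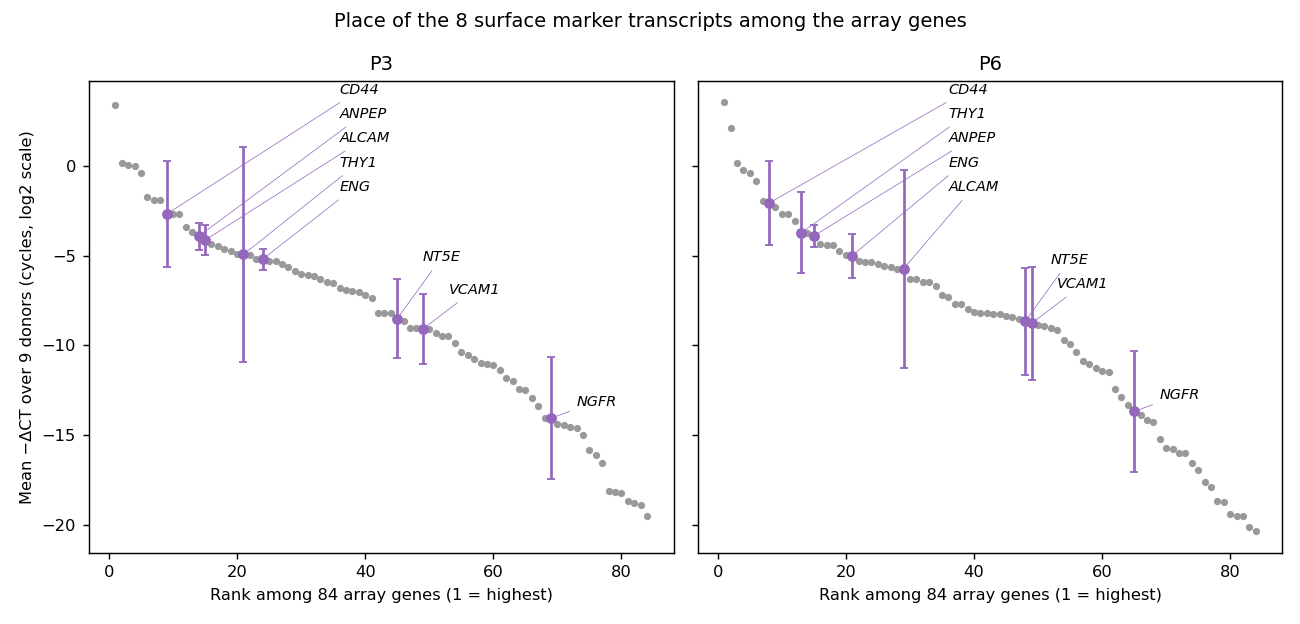
Mean −ΔCT (log2 scale) of the 84 array genes against their rank at P3 and at P6, rank 1 being the highest level, with the 8 surface markers in purple and bars for their SD over 9 donors. CD44 lies at ranks 9 and 8 and NGFR at ranks 69 and 65, while THY1 and ALCAM, each with 1 well that never crossed, exchange places.

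Neighbours in this order were compared within samples by an exact sign-flip permutation test over donors, two-sided, with adjustment over the 14 neighbouring pairs of both passages. No pair passed (0 of 14 with an adjusted p under 0.05, and 3 with an unadjusted p under 0.05). The largest steps were those from VCAM1 to NGFR, of 4.97 at P3 and 4.90 at P6, with NGFR lower in 8 of 9 donors each time (exact permutation test, adjusted p = 0.0547 for both). The step from ENG to NT5E at P3 was 3.31, with NT5E lower in 8 of 9 donors (exact permutation test, adjusted p = 0.0547). The markers at the top, CD44, ANPEP, ALCAM, THY1 and ENG at P3, followed each other by 0.22 to 1.23 units, less than the SD of each difference across donors.

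All pairs of markers were then compared in the same way, a test chosen after the values had been seen, with adjustment over 56 pairs. Of the 28 pairs at each passage, 17 differed at P3 and 16 at P6. The steps from VCAM1 to NGFR at both passages and from ENG to NT5E at P3 passed here but not in the planned comparison of neighbours. Their unadjusted p is the same in both (exact permutation test, 0.00781 for VCAM1 and NGFR, 0.0117 for ENG and NT5E). Only the set of pairs adjusted over differs. NGFR was below all 7 other markers at both passages (exact permutation test, adjusted p between 0.0115 and 0.0205 at P3 and between 0.0115 and 0.0156 at P6). Its distance to CD44 was 11.36 ± 0.795 (SE, n = 9 donors) at P3, 11.47 ± 0.893 (n = 8) without the undetermined NGFR well, and 11.59 ± 1.14 at P6, and NGFR was lower in 9 of 9 donors. NT5E and VCAM1 were each below 4 of the other markers at each passage, and the difference between the 2 did not pass (0.58 ± 1.03 at P3 and 0.12 ± 1.14 at P6). ENG was below ALCAM at P3 by 1.06 ± 0.208 in 9 of 9 donors (exact permutation test, adjusted p = 0.0115), whereas at P6 the means lay the other way round through the ALCAM well of donor 9/21, and in all but 2 of the 9 donors ALCAM remained the higher.

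Among the 3 defining markers of the human criteria, NT5E was below ENG at both passages (exact permutation test of all pairs, adjusted p = 0.0205 and 0.0331). THY1 did not differ from ENG at either passage (same test, adjusted p = 0.973 and 0.301). It passed above NT5E at P6 (adjusted p = 0.0115) but not at P3 (adjusted p = 0.155). THY1 (array position G06, RefSeq NM_001287129) had a −ΔCT at P3 that ranged from at most −20.42 over a median of −2.62 to −1.09, and at P6 from −7.12 over −3.18 to −0.85. Donor 9/21 was lowest at both passages, undetermined at P3 and with a CT of 21.82 at P6, and donor 7/22 was the second lowest at both, at −6.16 each time. The other 7 donors lay between −4.42 and −1.09 at P3 and between −5.82 and −0.85 at P6, and the passages overlapped. THY1 averaged −4.93 ± 6.00 (SD, n = 9 donors) at P3 and −3.73 ± 2.25 at P6. Without the undetermined well the P3 mean was −3.00 ± 1.63 (SD, n = 8 donors), above that of P6, which was −3.31 ± 1.98 over the same 8 donors.

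ENG (array position B08, RefSeq XM_005625330) varied little among donors. Its −ΔCT ranged from −6.08 over a median of −5.14 to −4.40 at P3, and from −5.87 over −5.26 to −1.89 at P6. The highest value belonged to donor 6/22 at P6, with a CT of 16.4, and the next was −4.81. The mean was −5.19 ± 0.592 (SD, n = 9 donors) at P3 and −5.00 ± 1.22 at P6, and −5.38 ± 0.405 at P6 without donor 6/22 (n = 8). Donor 6/22 at P6 is, like donor 9/21 at P6, a sample with 7 genes over 5 cycles above the other donors, whose part in this value was not tested.

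NT5E (array position E10, RefSeq XM_532221) was lower than ENG and varied more. The −ΔCT ranged from −11.59 over a median of −8.77 to −5.35 at P3, and from −12.69 over −8.43 to −3.50 at P6. Donors 13/21 and 14/21 were the 2 highest at both passages, at −5.35 and −5.86 at P3 and at −3.50 and −5.90 at P6. The means were −8.50 ± 2.22 and −8.65 ± 2.99 (SD, n = 9 donors), so that NT5E stood at 0.276% of the reference level at P3 and at 0.249% at P6, against 2.73% and 3.14% for ENG.

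**Figure D2:**
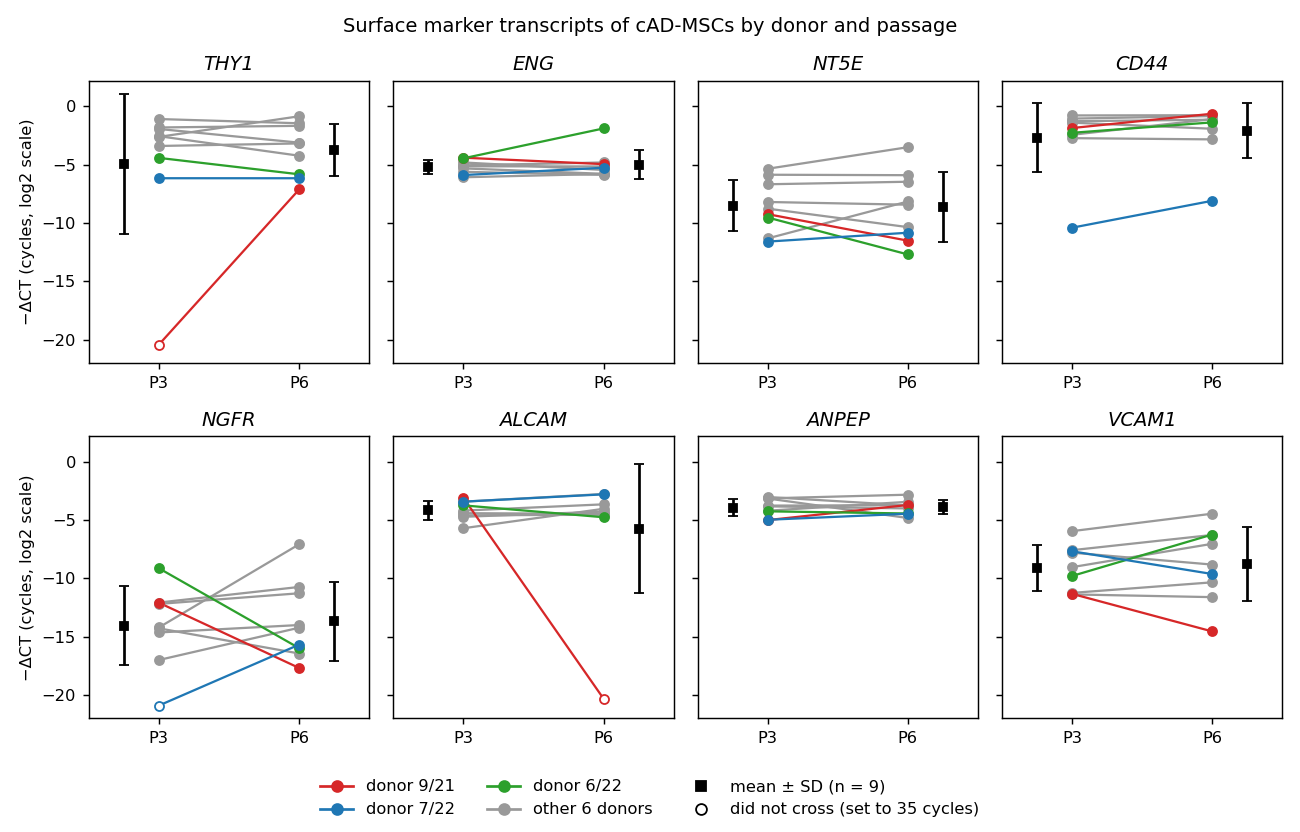
Level of each of the 8 surface markers (−ΔCT, log2 scale) in the 9 donors at P3 and P6, with lines that join the samples of a donor, and the mean with its SD as squares with bars. The 3 wells that never crossed are drawn as open circles at their upper bound near −20, and CD44 of donor 7/22 lies apart from the other donors at both passages.

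CD44 (array position B01, RefSeq NM_001197022) was the most abundant of the markers by CT. Its −ΔCT ranged from −10.40 over a median of −1.86 to −0.78 at P3, and from −8.09 over −1.15 to −0.63 at P6. Donor 7/22 was the lowest at both passages, 7.67 cycles below the next donor at P3 and 5.26 cycles at P6. The other 8 donors averaged −1.72 ± 0.705 (SD, n = 8 donors) at P3 and −1.32 ± 0.732 at P6, and all 9 averaged −2.69 ± 2.97 and −2.08 ± 2.36. The same donor had the second lowest THY1 and the lowest NGFR at P3, whereas its ALCAM, at −3.42 and −2.79, lay among the higher donors.

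The neurotrophin receptor gene NGFR (array position E08, RefSeq XM_548191) was the least abundant. The −ΔCT ranged from at most −20.89 over a median of −14.20 to −9.13 at P3, and from −17.67 over −14.22 to −7.07 at P6. Donor 7/22, undetermined at P3, had a CT of 29.8 at P6. The donors exchanged places between the passages: donor 1/22 was 7.13 higher at P6, while donors 6/22 and 9/21 were lower at P6, by differences of −6.85 and −5.59. The means of −14.05 ± 3.38 and −13.67 ± 3.38 (SD, n = 9 donors) correspond to 0.00590% and 0.00767% of the reference level. Without the undetermined well the P3 mean was −13.19 ± 2.35 (SD, n = 8 donors), or 0.0107% of the reference level, above the P6 mean of all 9 donors.

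Of the adhesion molecules and the aminopeptidase, ALCAM (array position A04, RefSeq NM_001313804) had a −ΔCT from −5.70 over a median of −4.19 to −3.08 at P3, and from at most −20.30 over −4.27 to −2.76 at P6. Donor 9/21 was the highest at P3, with a CT of 17.66, and was undetermined at P6. The other 8 donors lay between −4.75 and −2.76 at P6 and overlapped with P3, with donors 1/22 and 7/22 above the highest P3 value. The mean was −4.14 ± 0.819 (SD, n = 9 donors) at P3 and −5.73 ± 5.51 at P6, and −3.91 ± 0.774 at P6 without the undetermined well (n = 8).

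ANPEP (array position A05, RefSeq NM_001146034) had the narrowest range of the 8 markers over all 18 samples, from −5.00 to −2.82. It ranged from −5.00 over a median of −3.82 to −3.02 at P3, and from −4.82 over −3.74 to −2.82 at P6. No donor stood apart, and the passages overlapped almost fully. The means were −3.92 ± 0.751 and −3.90 ± 0.605 (SD, n = 9 donors).

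VCAM1 (array position G08, RefSeq NM_001003298) lay with NT5E in the lower part. The −ΔCT ranged from −11.37 over a median of −9.03 to −5.95 at P3, and from −14.54 over −8.81 to −4.45 at P6. Donor 6/21 was the highest at both passages, and donors 2/22 and 9/21 were the 2 lowest at both, in exchanged order. The means were −9.08 ± 1.97 and −8.77 ± 3.14 (SD, n = 9 donors).

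P6 was compared with P3 to ask whether prolonged culture alters the transcripts of these markers. None of the 8 passed the test across all genes (limma, Benjamini-Hochberg adjustment over 84 genes, adjusted p from 0.873 to 0.996, 0 of 8 with an unadjusted p under 0.05), and 1 of the 84 genes did (1.19%). With the donor as a block, which uses the pairing, 0 of 8 markers and 2 of 84 genes passed (2.38%), and the lowest adjusted p of a marker was 0.741, that of CD44. Means were higher at P6 for 6 markers and lower for 2, and over the 84 genes they were higher for 39 and lower for 45. The median log2 difference was 0.26 over the markers and −0.05 over the 84 genes. By the difference of medians THY1 (−0.56), ENG (−0.12) and NGFR (−0.022) were lower at P6 and NT5E (0.34) was higher. CD44, ANPEP and VCAM1 stayed higher and ALCAM lower. The precision differed between the markers. The 95% confidence interval of the log2 difference was narrowest for ANPEP, at 0.02 (−0.75 to 0.79), followed by ENG, at 0.20 (−0.80 to 1.20), so that a 2-fold change of ANPEP in either direction lay outside its interval. For CD44 the difference was 0.61 (−1.94 to 3.17), and 7 of 9 donors were higher at P6. With the donor as a block its interval narrowed to −0.14 to 1.37. For NT5E it was −0.15 (−2.66 to 2.37), for VCAM1 0.31 (−2.19 to 2.82) and for NGFR 0.38 (−2.83 to 3.58), and changes of 4-fold were within all 3 intervals. With the donor as a block, the intervals were −1.58 to 1.29 for NT5E and −1.20 to 1.83 for VCAM1, which leave out a 4-fold change, and −2.81 to 3.56 for NGFR, which does not. The NGFR difference was −0.48 without the undetermined well.

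THY1 and ALCAM were the only markers whose means differed by at least 2-fold, 2 of 8 against 31 of 84 genes (36.9%). THY1 was the 1 that was higher, as were 10 of 84 genes (11.9%), and ALCAM the 1 that was lower, as were 21 of 84 (25%). Both values turned on 1 well of donor 9/21. THY1 had a log2 difference of 1.20 (SE 2.04, adjusted p = 0.910 from limma) with the well and of −0.74 (SE 0.929, adjusted p = 0.883) without it, and 4 of 9 donors were higher at P6. Leaving out the well keeps the donor's sample of the other passage. Without both samples of donor 9/21 the difference was −0.31 for THY1 and 0.36 for ALCAM. ALCAM had a log2 difference of −1.59 (SE 1.77, adjusted p = 0.873 from limma) and, without its well, of 0.23 (SE 0.415, adjusted p = 0.921), and 6 of 9 donors were higher at P6. By medians, 0 of the 8 markers differed by at least 2-fold, against 14 of 84 genes (16.7%).

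**Figure D3:**
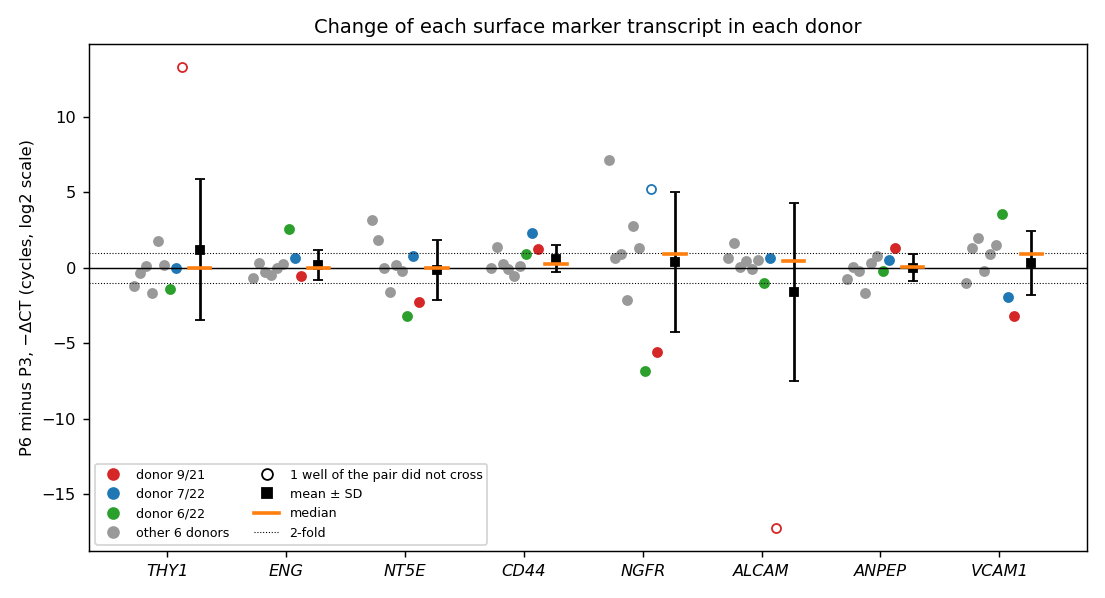
Difference between P6 and P3 (−ΔCT, log2 scale) of each donor for each of the 8 surface markers, with the mean and SD of the donor differences (square and bar), their median (orange line) and dotted lines at a 2-fold difference. Points lie on both sides of 0 for every marker, and open circles mark the 3 differences in which a well never crossed, of which those of THY1 and ALCAM, both of donor 9/21, lie far from the other donors.

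The donors' numbers end in 21 or in 22, a part of the name that may be a year. The differences of THY1 were 3.32 in the 4 donors ending in 21 and −0.50 in the 5 ending in 22, and those of ALCAM were −3.74 and 0.13. Donor 9/21 belongs to the first of these. The difference between these donors in the response passed for none of the 8 markers (limma interaction, adjusted p from 0.935 to 0.989 over 84 genes).

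Donors differed from each other in some markers more than the passages differed within a donor. The SD of the donor means over both passages was set against the SD of the donor differences between the passages. This ratio is 0.5 where the 2 passages of a donor are unrelated and equally spread. It was above 1 for 3 of the 8 markers, CD44 (2.95), NT5E (1.23) and VCAM1 (1.13), and for 19 of the 84 genes (22.6%). Donor 7/22 carried the ratio of CD44, which was 0.942 without it, and that of VCAM1 was 0.943 without donor 6/21. Without donor 9/21 the ratio of THY1 was 1.55 and that of ALCAM 0.877. Over all donors it was lowest for ALCAM (0.442), NGFR (0.535) and ANPEP (0.606). The median was 0.837 over the markers and 0.635 over the 84 genes.

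**Figure D4:**
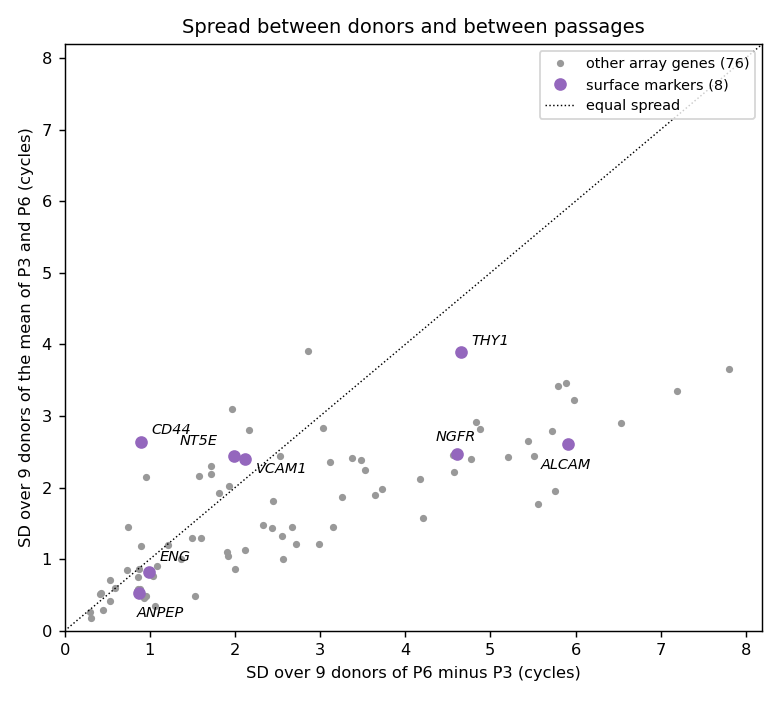
SD of the donor means against SD of the donor differences between P6 and P3 (both in −ΔCT units) for the 8 surface markers and the other 76 array genes. CD44, NT5E and VCAM1 lie above the line of equal spread, and ALCAM and NGFR lie well below it.

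The levels of a donor at P3 and P6 were correlated over the 9 donors for every gene, with an exact permutation test over 362880 pairings, two-sided, and adjustment over the 84 genes. THY1 was the 1 marker of 8 that passed (Pearson's r = 0.72, unadjusted p = 0.000774, adjusted p = 0.0457, exact permutation test), against 3 of 84 genes (3.57%), the others being GDF15 and JAG1. Its P3 value of donor 9/21 is the bound. Without donors 9/21 and 7/22, the 2 farthest from the median, r was 0.74 (exact permutation test, unadjusted p = 0.0567, adjusted p = 0.572), so that r held its size over 7 donors but the call was lost. Spearman's rho was 0.80 (exact permutation test, unadjusted p = 0.0138, adjusted p = 0.153), and by rho 0 of 84 genes passed (0%), among them 0 markers. CD44 had the highest r of the 84 genes, 0.97, with a rho of 0.67 (exact permutation tests, unadjusted p = 0.00875 and 0.0589, adjusted p = 0.126 and 0.225). Without donors 7/22 and 1/22, the 2 farthest from the median, r was 0.49. With 1 donor left out, r of CD44 fell as low as 0.56, so its height rests on few donors. Donor 7/22 lay far below the others (−10.40 at P3 and −8.09 at P6), while 1/22 lay near them (−0.78 and −0.76). For VCAM1 and NT5E r was 0.75 each, with a rho of 0.75 for both (exact permutation tests, adjusted p of r 0.136 and of rho 0.153 for both), and without the 2 farthest donors r was 0.59 and 0.43. ENG had an r of 0.61 and a rho of 0.72 (exact permutation tests, unadjusted p = 0.0501 and 0.0369, adjusted p = 0.221 and 0.172). ANPEP had an r of 0.19 and a rho of 0.12, NGFR had 0.07 and 0.00, and ALCAM had −0.42 and 0.00 (exact permutation tests, adjusted p of r 0.799, 0.917 and 0.503, and of rho 0.880, 1 and 1). The r of ALCAM turned to 0.70 without donors 9/21 and 13/21. The 4 donors ending in 21 and the 5 ending in 22 are too few for a correlation within each.

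Of the 76 array genes other than these markers, the one most like each marker, by Spearman's rho of −ΔCT over the 18 samples, is given as a description. These samples share donors and the reference genes that scale them. NT5E was most like SLC17A5, a lysosomal sialic acid transporter, with a rho of 0.84, and ANPEP was most like FGF2, a fibroblast growth factor, with 0.81. THY1 was most like HGF, hepatocyte growth factor (0.71), ENG like the granulocyte growth factor CSF3 (0.71), CD44 like the chondrogenic transcription factor SOX9 (0.71), NGFR like the cytokine LIF (0.69) and ALCAM like the osteogenic transcription factor RUNX2 (0.69). VCAM1 had the weakest partner, the transcription factor TBX5, with 0.59. Among the markers themselves, THY1 and NT5E were the most alike, with 0.79, whereas ENG ran against both, with −0.49 to THY1 and −0.48 to NT5E.

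The array holds 9 further surface molecules, ICAM1, MCAM, ITGB1, ITGAV, PDGFRB, PROM1, PTPRC, ITGAX and KDR. Of these, 0 rose and 1 fell at P6, and 2 fell with the donor as a block. Means were higher for 4 and lower for 5, with a median log2 difference of −0.22. PTPRC, the leukocyte antigen CD45, had a −ΔCT from −19.37 over a median of −13.85 to −11.55 at P3, with detection in 9 donors. At P6 it ran from at most −20.87 over a median of at most −19.88 to −15.90, with detection in 4 donors. The ranges overlapped, and it was lower at P6 in 9 of 9 donors (log2 difference −4.38, SE 0.997, adjusted p = 0.0300 from limma, 0.0202 with the donor as a block). By the exact permutation test, or without undetermined wells, 0 of 84 genes passed. ITGAX, the leukocyte integrin CD11c, was detected in 8 donors at P3 and in 3 at P6 and was lower in 8 of 9 donors (log2 difference −4.91, SE 1.28, adjusted p = 0.0519 from limma, 0.0238 with the donor as a block). Samples without detection of PTPRC or ITGAX were set to the CT limit, so the sizes of both differences depend on it. The markers of MSCs and these leukocyte antigens were not tested against each other.

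The study stained cells at P3 with antibodies to CD90, CD105, CD44, CD73 and CD271, the products of 5 of the 8 genes, and has no antibody for the other 3 in its panel. Its staining results are not used here, and no protein value is set beside the transcripts. Among these 5 genes the mean transcript level at P3 ran in the order CD44, THY1, ENG, NT5E and NGFR, and THY1, CD44 and NGFR were those with a donor whose level lay at least 3.90 cycles below the next.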

How the data were processed

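Total RNA of cAD-MSCs at P3 and P6 was measured with a SYBR Green RT-qPCR array of 96 wells, among them 7 control wells. For each sample the authors deposited raw CTs, including those of wells listed as undetermined, and for each passage the mean ΔCT, on a log2 scale, and the linear ratio to the reference genes, both with a CT limit of 35. Their column of fold changes was not used. Mean ΔCT values computed here differed from the deposited ones by at most 0.00446 for the 8 markers at P3. CTs carry no read depth, and the precision rests on 9 donors with single wells, whose error is part of the spread between donors. No genome build is named for the array, and 5 of the 8 accessions and 8 of the 8 symbols matched the reference gene table. No sequence is shown.

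The passages were compared in limma 3.58.1 and R 4.3.3 (unpaired, as in the methods, two-sided, Benjamini-Hochberg over 84 genes, threshold 0.05). Pairs of genes were compared by sign flips over donors (512 flips, smallest p 0.00391) and correlations by permutation with Python 3.11.15, numpy 2.4.6 and scipy 1.17.1. Figures were drawn with matplotlib 3.10.9. The fit was also run on simulated normal values with known changes. These values held no donor pairing, no CT limit and no distant wells, so the simulation does not cover those features of the data. Correlations were to be adjusted over the 8 markers but were adjusted over all 84 genes, because the choice of these markers, made by name, and of the gene lists was made with earlier results of these data known. Named are the 8 markers, the reference genes, the further surface molecules with an unadjusted p under 0.05 with or without the block, and the most alike gene of each marker.

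The samples of both passages are paired because they come from the same dogs. After subtraction of passage means, the correlation between both samples of 1 dog was 0.066 to 0.643, with a median of 0.161 and 6 of 9 above 0.1, while samples of different dogs had a median of −0.034. The pair from the same dog had the highest correlation in 4 of 9 dogs. Alternatives were the donor block, permutation and the methods' t-test on the linear ratios, robust regression, CT limits of 40 and 32, 3 other scalings, a filter on mean CT of at most 30 (74 genes), donors ending in 21 or 22 alone, medians, rho and each donor left out. The comparison of all pairs and the settings without undetermined wells or without donors 9/21 and 7/22, and the spread ratios without 1 donor, were added after the data were seen.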

Additional observations from a re-analysis of the deposited data

Results flagged for a closer look

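Among the 24 groups of 9 donors examined (8 markers at P3, at P6 and in the donor difference), 8 held a sample whose gap to its nearest neighbour was an unusually large share of the range. Chance gives about 5% of independent groups of normal values. These groups are not independent, since the differences reuse the values at P3 and P6, and some hold wells set to the limit. The count can therefore not be read as an excess over that share. Donor 9/21 accounted for 4 of the 8 groups. Its THY1 level was at most −20.42 at P3, and the difference between its passages was 13.30, while its ALCAM level was at most −20.30 at P6, with a difference of −17.22. Donor 7/22 had a CD44 level of −10.40 at P3 and of −8.09 at P6, far below the other donors at both passages. Donor 6/22 had an ENG level of −1.89 at P6 and a difference of 2.56. The cause was not tested for any of these.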

How the results depend on the processing

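The P6 against P3 differences of the markers kept their sign in 163 of 200 alternative values and turned it in 37. Some of these values could not turn. The donor block, the permutation test and the filter on mean CT keep the same difference, and the deposited means are the same means rounded. For ENG, NT5E, CD44, ANPEP and VCAM1, the CT limits and the omission of undetermined wells also left the difference unchanged. The count therefore overstates how well the signs held. None of the 184 values with a p had an adjusted p under 0.05, and the 16 from medians and deposited means have none. CD44 never turned (0.28 to 0.73 over the alternatives, 0.40 to 0.75 with 1 donor left out). THY1 was −0.27 by robust regression, −0.50 in donors ending in 22, −0.74 without undetermined wells, −0.36 without donors 9/21 and 7/22 and −0.56 by medians. ENG was −0.079 by robust regression, −0.070 in donors ending in 21 and −0.12 by medians. NT5E was 0.030 without donors 9/21 and 7/22, 1.03 by the methods' t-test on linear means and 0.34 by medians. NGFR was −0.27 by robust regression, −0.68 in donors ending in 21, −0.48 without undetermined wells and −0.022 by medians. ALCAM was 0.13 in donors ending in 22, 0.23 without undetermined wells, 0.33 without donors 9/21 and 7/22 and 0.070 by linear means. ANPEP was −0.0082 by robust regression, −0.14 with the median of the always detected genes as scale, −0.35 in donors ending in 22, −0.23 without donors 9/21 and 7/22 and −0.029 by linear means. With 1 donor left out, the differences ranged from −0.31 to 1.56 for THY1 (negative without 9/21), −0.10 to 0.30 for ENG (negative without 6/22), −0.56 to 0.23 for NT5E (positive without 9/21, 2/22 or 6/22), −0.47 to 1.28 for NGFR (negative without 1/22 or 7/22), −2.00 to 0.36 for ALCAM (positive without 9/21), −0.14 to 0.23 for ANPEP (negative without 6/21, 9/21, 3/22 or 7/22) and −0.090 to 0.76 for VCAM1 (negative without 6/22). Apart from the wells and donors named, the cause was not tested.

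Of the 84 genes, 1 passed in the unpaired fit, 2 with the donor as a block, 3 by robust regression, 2 with the median of genes as scale and 2 with the filter on mean CT. None (0) passed without ACTB and B2M, in donors ending in 21 or in 22 alone, without undetermined wells, without donors 9/21 and 7/22, by the exact permutation test or by the methods' t-test after adjustment (4 before it), and 0 to 2 passed with 1 donor left out. The fit had 5 genes at an unadjusted p under 0.05. Members at least 2-fold apart numbered 2, but 1 with a CT limit of 32, 0 by medians, 0 without undetermined wells, 1 without donors 9/21 and 7/22, and 1 to 3 with 1 donor left out. Neighbouring pairs that differed numbered 0, and 3 with a CT limit of 40 (0 to 0 with 1 donor left out). In a count that was not planned, NGFR lay below 7 of 7 markers at both passages with CT limits of 40 and 32, without undetermined wells, without donors 9/21 and 7/22 and with each donor left out (7 to 7). Correlated markers numbered 1, but 2 without ACTB and B2M (THY1 and CD44, adjusted p = 0.0323 and 0.0374, exact permutation test), 0 by rho, 0 without the 2 farthest donors, 0 without donors 9/21 and 7/22, and 0 to 1 with 1 donor left out, where only the omission of 3/22 kept the call of THY1. The block changed the call of no marker and added ITGAX to the genes that passed.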
